A study of Mus musculus with 14 samples.

Results

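The 6 genes described here are those by which an eosinophil is usually recognised: Il5ra, Epx, Prg2, Prg3, Siglecf and Ccr3, 6 of the 21887 protein-coding genes of the RefSeq mouse annotation. They were chosen by name, with the way their histone marks differ between wild type and Utx knockout already known, so their values in that contrast are given as a description and carry no test. All 6 had at least 1 H3K27ac island in each of the 4 H3K27ac libraries within 20 kb of the gene, as did 65.9% of protein-coding genes. The 6 genes lie at 5 separate loci, because Prg2 and Prg3 are neighbours on chromosome 2 and share their marked regions.

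The data are ChIP-seq islands from lineage-depleted bone marrow, a fraction enriched for blood stem and progenitor cells by removing cells that carry mature lineage markers. All donors were C57BL/6 mice, either UTX WT (called WT below) or UTX KO (called KO), and the labels give neither the age of the mice nor how or in which cells the gene was removed. H3K27ac, a mark of active promoters and enhancers, and H3K27me3, the Polycomb mark of silent genes, were each read in 2 WT and 2 KO libraries. UTX (Kdm6a), the H3K27 demethylase missing from the KO mice, was read in 2 WT libraries, and 1 WT library with IgG gave the background. A further 3 samples of the series were not used here, and nothing in the labels ties the libraries to separate mice, so errors and p-values below reflect only how libraries of 1 group vary.

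Eosinophils are granulocytes that arise in the bone marrow from granulocyte progenitors under interleukin 5. The receptor chain encoded by Il5ra binds interleukin 5 and, with the shared beta chain Csf2rb, signals through Jak2 and Stat5. The granules are filled with a peroxidase (Epx) and with major basic proteins (Prg2 and Prg3), while the lectin Siglecf and the eotaxin receptor Ccr3 mark the cell surface. In mouse and human progenitors the transcription factors GATA1, PU.1 and the C/EBP family are known to direct this lineage.

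The H3K27ac libraries held 9330823 to 15256696 reads in islands, the H3K27me3 libraries 2347442 to 2743508, the UTX libraries 816567 and 1834418, and the IgG library 154029. Kit, a surface receptor of blood stem and progenitor cells, held H3K27ac in every H3K27ac library. It was lower in KO, with a log2 fold change of -0.51 (SE 0.0857 in edgeR, adjusted p = 0.00587). The knocked-out gene itself gave no check of the labels: H3K27ac islands over Kdm6a were called in both genotypes, with 1840 and 1562 reads for WT against 2674 and 2059 for KO.

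The 250 bases before the annotated start are printed for Il5ra, Epx and Prg3, whose starts lay inside regions with more H3K27ac in KO, and for Ccr3, whose start in the promoter table was reached by islands in KO only. They come from RefSeq on GRCm38.p6 (mm10), where 5 of the 6 genes matched an entry. Each is written 5′ to 3′ on the strand of its gene, and capitals mark a match to the GATA motif on either strand. The stretches are chr6:106749038-106749287 on the minus strand for Il5ra, chr11:87875537-87875786 on the minus strand for Epx, chr2:84987965-84988214 on the plus strand for Prg3 and chr9:124021721-124021970 on the plus strand for Ccr3.
Il5ra: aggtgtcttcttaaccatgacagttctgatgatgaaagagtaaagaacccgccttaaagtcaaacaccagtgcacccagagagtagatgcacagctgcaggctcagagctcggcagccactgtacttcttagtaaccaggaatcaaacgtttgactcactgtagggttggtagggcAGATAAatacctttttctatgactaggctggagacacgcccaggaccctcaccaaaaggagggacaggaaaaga
Epx: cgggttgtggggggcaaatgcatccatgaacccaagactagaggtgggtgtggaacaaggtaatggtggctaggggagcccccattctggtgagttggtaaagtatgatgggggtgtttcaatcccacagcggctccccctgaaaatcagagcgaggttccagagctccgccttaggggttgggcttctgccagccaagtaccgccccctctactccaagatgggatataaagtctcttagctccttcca
Prg3: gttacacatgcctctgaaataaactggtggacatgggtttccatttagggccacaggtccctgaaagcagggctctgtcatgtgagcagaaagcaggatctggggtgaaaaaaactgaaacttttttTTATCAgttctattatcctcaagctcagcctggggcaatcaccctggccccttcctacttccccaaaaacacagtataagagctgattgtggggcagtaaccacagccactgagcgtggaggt
Ccr3: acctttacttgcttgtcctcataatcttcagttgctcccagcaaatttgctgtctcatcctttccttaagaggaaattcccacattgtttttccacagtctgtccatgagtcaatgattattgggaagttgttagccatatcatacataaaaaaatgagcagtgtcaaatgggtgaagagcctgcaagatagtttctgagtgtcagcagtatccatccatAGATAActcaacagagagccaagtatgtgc

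The GATA motif was searched as AGATAA or TGATAA on both strands, over 250 bases before and 50 after the start. It was present in 4 of the 5 windows, against 15.9% of 21263 promoters of the same length. Starts are those of the promoter table, which for Prg3 (84988215) and Ccr3 (124021971) lie inside the gene's outermost coordinates. Counting the first base of the transcript as 1, AGATAA began at -74 in Il5ra and at -30 in Ccr3. TGATAA began at -123 on the opposite strand in Prg3 and at 12, past the start, in Siglecf. Epx held neither form. GAGGAA, a core of PU.1 sites, was found at 42 in Il5ra, at -65 on the opposite strand in Siglecf and at -181 in Ccr3, against 27.4% of promoters. TTNNGCAA, a C/EBP core found in 10.2% of promoters, was found in none of the 5. These matches are letters in a window and not measured binding.

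Reads of all islands within 20 kb of each gene, scaled to the total of reads in islands of the library (rpm), were higher in both KO libraries than in both WT libraries for Il5ra, Epx, Prg2 and Prg3, 4 of 6, while 37.0% of genes with an island in their window were. Siglecf was lower in both KO libraries, as were 31.1% of genes, and Ccr3 overlapped. Because the genes were chosen on this contrast, nothing is read from these counts. In bulk tissue, more cells that carry the mark and more mark per cell cannot be told apart.

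Window totals ranked the loci differently in the 2 genotypes. The windows differ in length with the gene, islands at their edges were counted whole, and islands by neighbouring genes were included. Prg3 had the highest total in WT with 189 and 174 rpm, and it reached 420 and 453 rpm in KO, 2.41 times the WT mean. The Prg2 window, which holds mostly the same islands, went from 154 and 131 to 408 and 453 rpm. Ccr3, with 136 and 170 rpm, overlapped with Prg2 in WT, but at 175 and 164 rpm in KO it lay below both granule protein genes. Il5ra went from 67.8 and 45.6 to 199 and 205 rpm, a mean of 56.7 ± 15.7 against 202 ± 4.07 (SD, n = 2). Epx went from 68.2 and 31.0 to 196 and 185 rpm, 3.84 times the WT mean. In WT, Il5ra, Epx and Siglecf (69.9 and 59.0 rpm) did not differ beyond the spread of their libraries. In KO, Il5ra lay above Epx, and Siglecf, at 53.2 and 49.5 rpm, lay far below every other locus. The Il5ra totals included an island by the neighbouring gene Trnt1, at 35.7 and 28.6 rpm in WT and 35.4 and 38.8 in KO. The order is therefore one of windows and not of the genes themselves. The ratio of KO to WT hung on the window and the measure. For Prg3 it was 14.0 over the gene alone, 3.51 with 5 kb either side and 1.56 with 50 kb, and for Prg2 it was 6.94, 7.15 and 1.69. Over the gene alone, every island that met the gene was still counted whole. The 14.0 sets KO islands of 235 and 243 rpm, which also cover Prg2, against WT islands of 20.6 and 13.7 rpm at the Prg3 start. It is therefore not a ratio of signal within Prg3. For Il5ra the ratio was 6.2 over the gene alone and 1.22 on reads per kb of island. For Epx it was 4.84 and 1.91, with 5.49 when the sparsest islands, those with the fewest reads per kb, were left out. For Ccr3 it was 2.3 over the gene alone, against 1.11 with 20 kb.

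**Figure D1:**
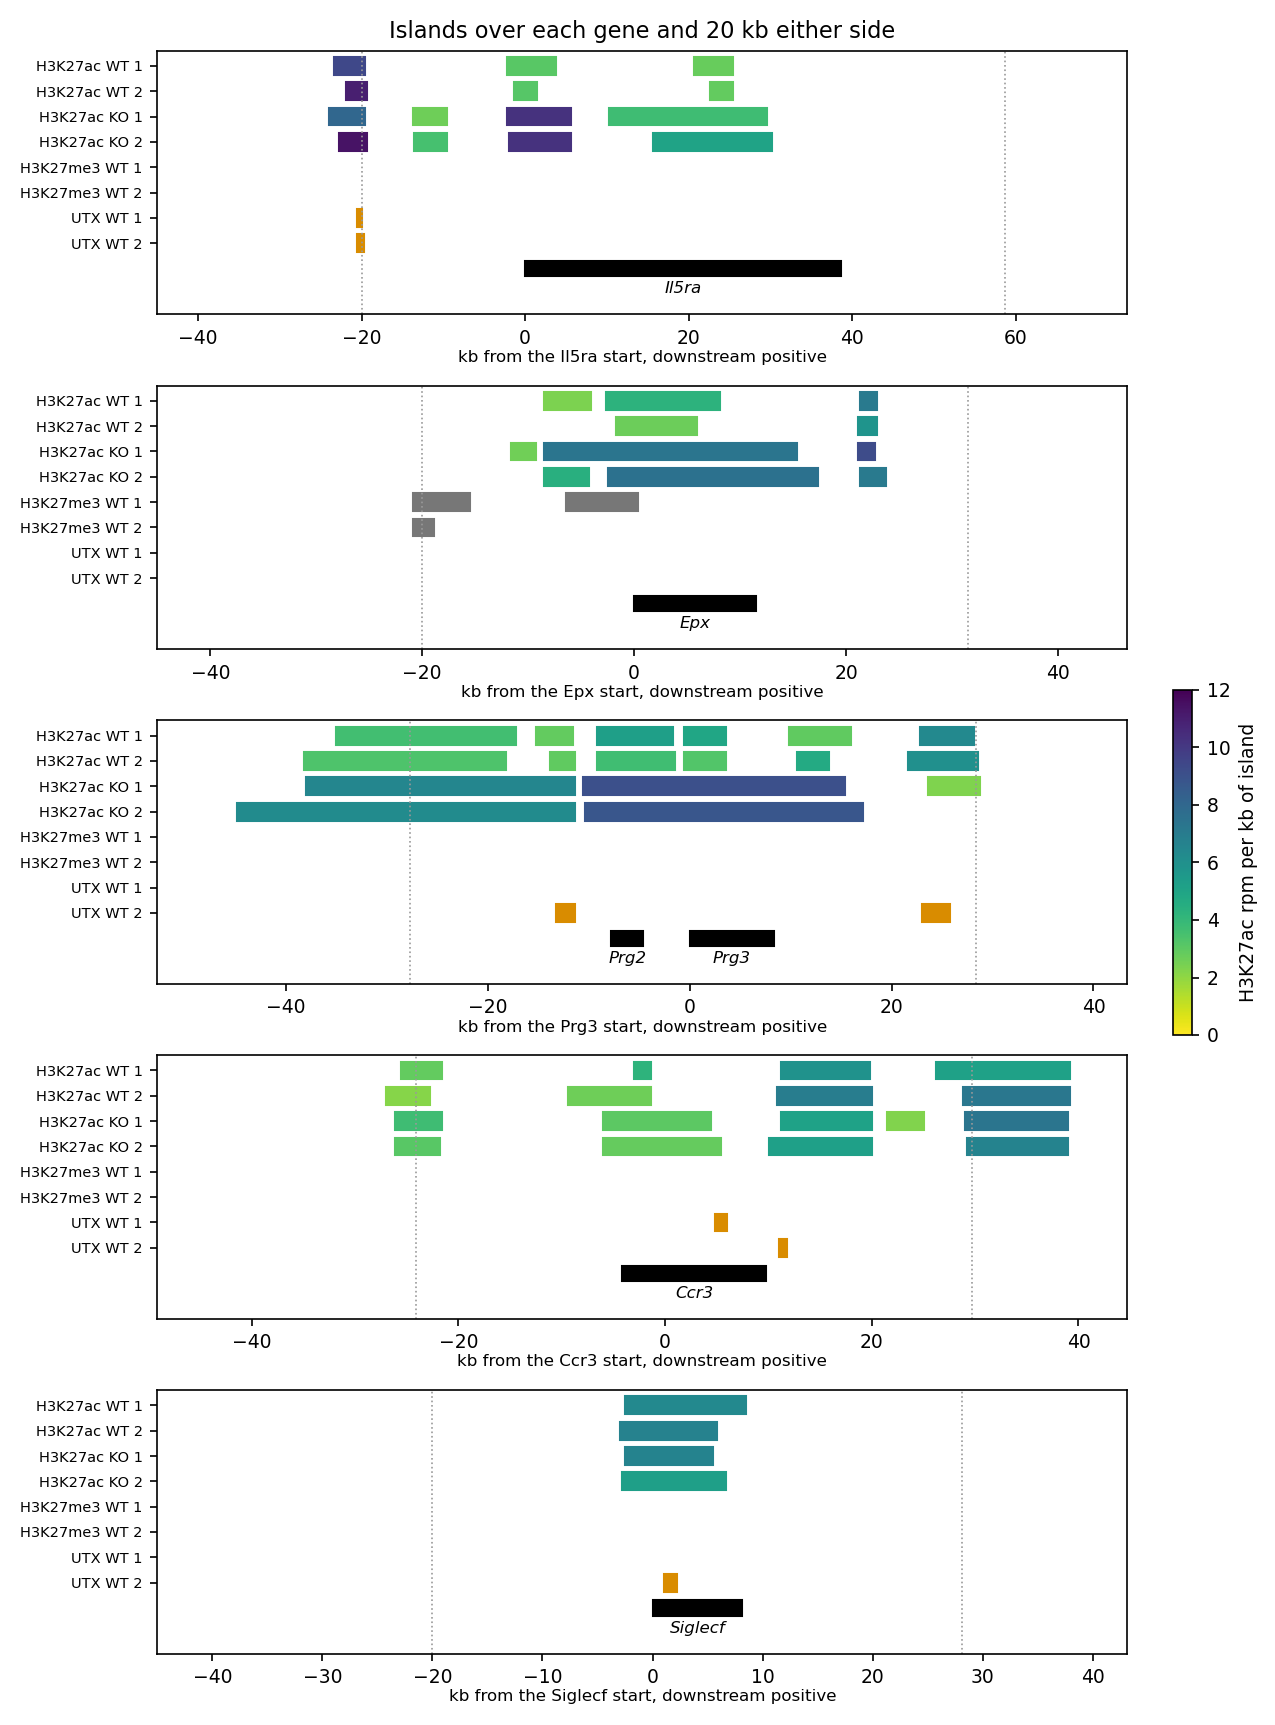
Islands of the H3K27ac, WT H3K27me3 and UTX libraries over each gene with 20 kb either side (dotted lines), by distance in kb from the annotated start. The KO H3K27me3 libraries and the IgG library, which had no island in these windows, are not drawn. H3K27ac islands are coloured by rpm per kb, H3K27me3 islands are grey, UTX islands orange and genes black. KO islands over Il5ra, Epx, Prg2 and Prg3 are longer and denser than WT islands, while those over Siglecf are not.

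The tested unit was the region, made by merging overlapping islands of the 4 libraries of a mark, and a fold change was fitted for regions with an island in all 4. Only reads inside the islands of a library were counted, so a stretch without a called island added none. Where islands were shorter in 1 genotype, the fold change also holds that difference in called length. The 6 windows held 16 H3K27ac regions, of which 12 qualified. A log2 fold change of at least 1 was found in 6 of the 12, against 4.82% of all 18820 regions. CPM was higher in both KO libraries in 8 of the 12, against 32.7% of all regions, and lower in both in 2, against 33.5%. Reads per kb of island were higher in both KO libraries in 6 of the 12, against 26.1% of all regions. The contrast had chosen the genes, so these shares describe and do not support.

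Il5ra (chr6:106710375-106749037, mm10, minus strand) held the 2 highest log2 fold changes of the 12 regions, although by window totals Epx differed more (3.84 against 3.56 times). The region over its start (chr6:106743401-106751200) held 175 and 135 reads in the WT libraries, against 1191 and 874 for KO. Scaled by edgeR to the reads of each library over the tested regions (CPM), this was 20.6 and 10.2 in WT and 84.8 and 81.1 in KO, a log2 fold change of 2.46 (SE 0.284) that ranked 20 from the top of 18820. The groups did not overlap, and the KO libraries agreed more closely than the WT libraries. Leaving out 1 library in turn gave log2 fold changes from 2.02 to 3.02.

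Both the length and the density of the Il5ra start island differed. It was 6.0 and 2.8 kb long in WT and 7.8 and 7.6 kb in KO. The density, in rpm per kb of island, was 3.13 and 3.16 in WT and 10.3 in each KO library, 3.29 times higher. Within each library this put the island at percentiles 24.4 and 37.6 of all H3K27ac islands by reads per kb in WT, and at 87.2 and 82.8 in KO. By density, Il5ra thus had the lowest WT mean among the start regions of the 5 loci, where it did not differ from Epx and Ccr3 beyond the spread of the libraries, and the highest KO mean, above every library of the other loci.

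A second region lay within the gene, from 10.2 to 30.2 kb past the start (chr6:106718801-106738800). It held 14.7 and 9.41 CPM in WT and 75.6 and 75.7 CPM in KO, a log2 fold change of 2.67 (SE 0.212), ranked 13. Here most of the difference was in length: the islands covered 4.8 and 2.8 kb in WT and 19.4 and 14.6 kb in KO. Density went from 2.79 and 2.90 to 3.71 and 5.03 rpm per kb, a log2 fold change of 0.6 (SE 0.225). A further island 9.6 to 13.8 kb before the start was called in both KO libraries, with 163 and 157 reads, and in neither WT library. The island at the far edge of the window, by a boundary of Trnt1, a tRNA-processing enzyme, held 39.2 and 33.2 CPM in WT and 37.2 and 40.0 CPM in KO. That neighbour overlapped between genotypes, with a log2 fold change of 0.10 (SE 0.155).

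**Figure D2:**
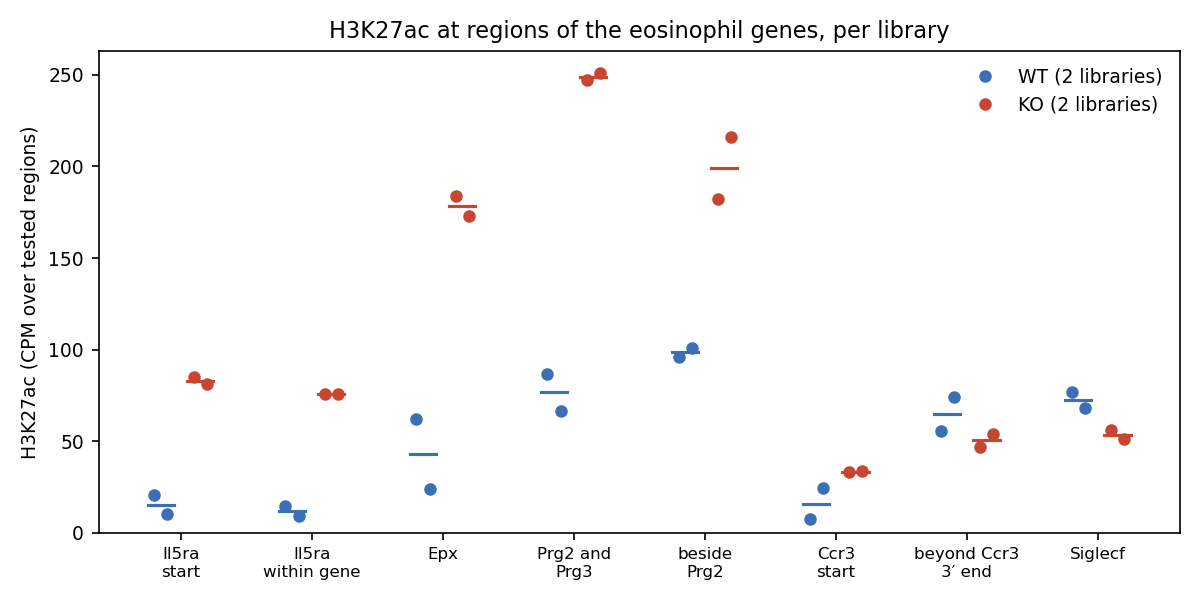
H3K27ac in CPM at 8 regions of the eosinophil genes, with a point per library and a line at the mean of 2 libraries. Both KO libraries lie above both WT libraries at Il5ra, at Epx, at Prg2 and Prg3 and beside Prg2. So do they at the start of Ccr3, with 7.41 and 24.4 CPM in WT and 33.1 and 33.5 in KO. At Siglecf both KO libraries lie below both WT libraries. The same holds beyond the Ccr3 3′ end, with 55.4 and 74.1 CPM in WT and 47.1 and 54.0 in KO.

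Epx (chr11:87863997-87875536, minus strand) sits in a cluster with Mpo and Lpo, the peroxidases of neutrophils and of secretions. Its region (chr11:87858201-87884000, which also meets a boundary of Mks1) held 530 and 314 reads in the WT libraries, against 2578 and 1867 for KO. That was 62.3 and 23.8 CPM in WT and 184 and 173 CPM in KO, a log2 fold change of 2.08 (SE 0.365). The WT libraries differed from each other by more than the KO libraries did, and the size of the change rested on them: it was 2.91 without WT replicate 1 and 1.53 without WT replicate 2. Covered length went from 15.2 and 7.6 kb to 23.8 and 24.0 kb, and density from 3.74 and 2.71 to 7.34 and 6.99 rpm per kb. A small region at the other Mks1 boundary, beyond Epx, gave a log2 fold change of 0.43 (SE 0.219). An island of 93 reads before Epx was called in KO replicate 1 alone.

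Epx was also the one gene of the 6 with H3K27me3. WT replicate 1 had an island of 99 reads across the Epx start (chr11:87875201-87882000), and no other library had an island there. By reads per kb this island lay at percentile 8.21 of its library. Farther upstream, by the olfactory receptor genes Olfr462 and Olfr463, an island was called in WT replicate 1 with 92 reads and in WT replicate 2 with 52 reads, and in neither KO library. An island in both WT and neither KO libraries was found in 5.33% of gene windows that held any H3K27me3. Fewer H3K27me3 islands were called in the KO libraries as a whole, 15743 and 14665, against 18847 and 20412 in WT. No H3K27me3 island was called over the windows of the other 5 genes in any library, whereas 55.6% of all gene windows had at least 1. No region of the 6 had an island in all 4 H3K27me3 libraries, so none had a fold change, and a region without an island is one that the caller did not mark and not one with 0 reads.

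Prg2 (chr2:84980461-84983632) and Prg3 (chr2:84988196-84996559) were covered by a single region (chr2:84977601-85005400, which also reaches the end of P2rx3). It held 736 and 878 reads in the WT libraries, against 3475 and 2703 for KO, or 86.6 and 66.6 CPM against 247 and 251 CPM. The log2 fold change was 1.71 (SE 0.126), and leaving out a library gave 1.54 to 1.91. In each WT library the signal was split into separate islands, of which 1 lay over Prg2, 1 over the Prg3 start and 1 past the Prg3 end. In each KO library 1 island of 26.0 or 27.6 kb ran across both genes. Density went from 4.38 and 3.79 to 9.05 and 8.81 rpm per kb.

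The neighbouring region before Prg2 (chr2:84943401-84976800), which holds a boundary of the nucleobase transporter gene Slc43a3, held 95.9 and 101 CPM in WT and 182 and 216 CPM in KO. Its covered length barely differed, at 27 and 27.8 kb in WT against 26.6 and 33.4 kb in KO, while density went from 3.23 and 3.12 to 6.5 and 6.28 rpm per kb. The other flank went the opposite way. An island 21.6 to 28.8 kb past the Prg3 start, inside P2rx3, held 34.3 and 42.2 rpm in WT and 12.1 rpm in KO replicate 1, and was not called in KO replicate 2.

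**Figure D3:**
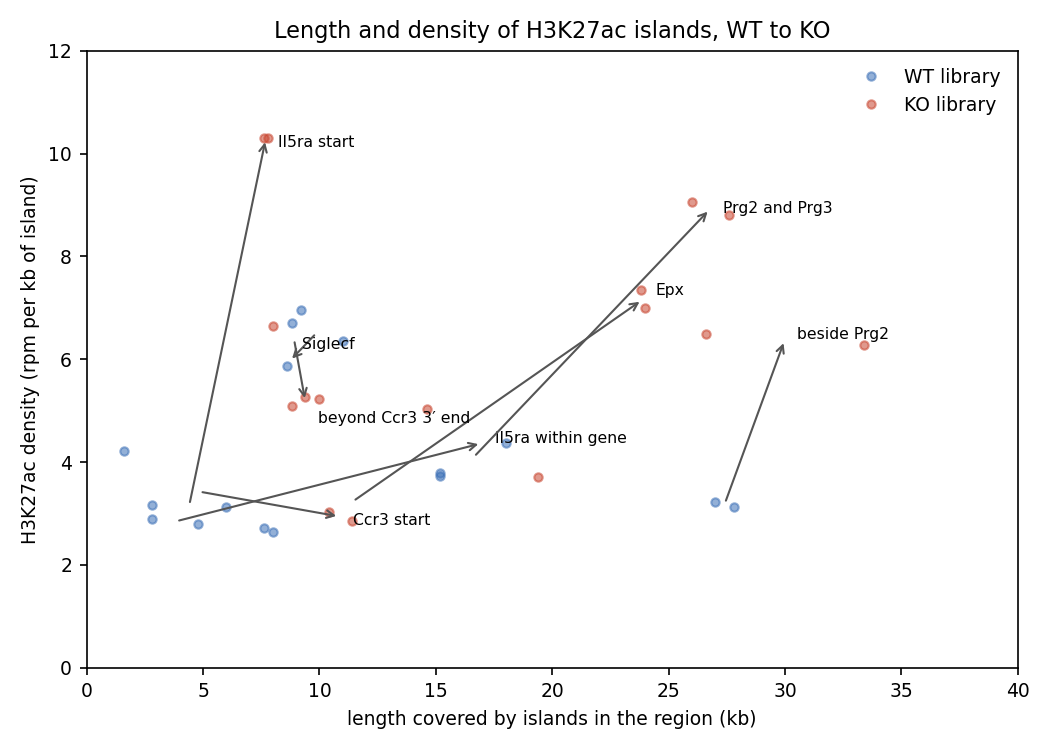
Length covered by H3K27ac islands (x, kb) against density (y, rpm per kb) for the same 8 regions, with a point per library and an arrow from the WT mean to the KO mean. The Il5ra start moves mainly up, the Il5ra region within the gene mainly to the right, Epx and the Prg2 and Prg3 region in both, and the Ccr3 start to the right at about the same density.

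Siglecf (chr7:43351341-43359475, plus strand) had 1 H3K27ac region (chr7:43348401-43359800) with 76.7 and 68.3 CPM in WT and 55.9 and 51.1 CPM in KO. Both KO libraries lay below both WT libraries, with a log2 fold change of -0.44 (SE 0.118). Density overlapped between genotypes, at 6.35 and 6.70 rpm per kb in WT and 6.65 and 5.26 in KO. By density the Siglecf start had the highest WT mean of the 5 loci and ranked above only Ccr3 in KO.

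Ccr3 (chr9:124017825-124031692, plus strand) had its start region at chr9:124012601-124027400. CPM there was 7.41 and 24.4 in WT and 33.1 and 33.5 in KO, a log2 fold change of 1.04 (SE 0.457), and it rested on the WT libraries, at 0.45 without WT replicate 1 and 2.18 without WT replicate 2. The islands covered 1.6 and 8.0 kb in WT and stopped short of the start in the promoter table (124021971), although that of WT replicate 2 covered the gene's outermost coordinate. In KO they covered 10.4 and 11.4 kb and ran past it. Density overlapped, at 4.22 and 2.64 rpm per kb in WT and 3.03 and 2.85 in KO, and the log2 change in reads per kb was -0.18. The stronger region just past the end of Ccr3 held 55.4 and 74.1 CPM in WT and 47.1 and 54.0 CPM in KO, a log2 fold change of -0.36 (SE 0.163). At the edges of the window, regions 21.6 to 27 kb before and 26.2 to 39.2 kb past the start gave 0.47 (SE 0.245) and -0.15 (SE 0.127), and a small island of 120 reads was called in KO replicate 1 alone. At its start, Ccr3 had longer islands in KO without more reads per kb, and Il5ra had both.

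Islands of both UTX libraries fell in the windows of Il5ra and Ccr3, 2 of 6, against 52.1% of all genes, and an island of at least 1 library in 5 of 6, against 68.0%. UTX in WT was part of how the genes were chosen, so the shares are a description. At Il5ra both UTX islands, of 35 and 50 reads, lay by a boundary of Trnt1 about 20 kb away. H3K27ac there overlapped between genotypes, and neither UTX island lay in Il5ra itself. At Ccr3 the libraries marked different places, with 35 reads inside the gene in UTX replicate 1 and 50 reads past its end in replicate 2. Siglecf had a UTX island of 46 reads within the gene in replicate 2 only. Prg2 and Prg3 had islands of 71 reads before Prg2 and, in the Prg3 window, 125 reads inside P2rx3, again in replicate 2 only. Epx had none in either library. The IgG library had no island in any of the 6 windows.

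Regions outside the windows and within 200 kb were not part of the rule and were tested with edgeR (quasi-likelihood test, Benjamini-Hochberg over all 18820 regions, threshold 0.05, n = 2 per genotype). That test called 12.0% of all regions higher in KO and 14.0% lower. Around Il5ra neither of 2 regions passed, and around Ccr3 none of 11 did. The nearest to passing there was Ccr2, a monocyte receptor, with a log2 fold change of -0.51 (SE 0.157 in edgeR, adjusted p = 0.0537). Around Prg2 and Prg3 none of 8 regions was higher and 5 were lower, with the steepest at the amino acid transporter Slc43a1 (log2 fold change -2.0, SE 0.159 in edgeR, adjusted p = 0.00048) and another at the far end of Slc43a3 (-0.71, SE 0.104 in edgeR, adjusted p = 0.00343).

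Around Epx 2 of 8 regions were higher and 1 was lower. The region of Hsf5 and Rnf43 was higher by 1.42 (SE 0.103 in edgeR, adjusted p = 0.000392) and that of Rnf43 and Supt4a lower, at -0.80 (SE 0.0775 in edgeR, adjusted p = 0.000779). The domain that holds Mpo and Lpo did not pass (0.12, SE 0.0792 in edgeR, adjusted p = 0.305), with 819 ± 34.2 CPM in WT and 891 ± 64.6 in KO. Around Siglecf 1 of 9 regions was higher, by a boundary of Siglecg, a lectin of B cells (1.14, SE 0.219 in edgeR, adjusted p = 0.0101), and none was lower. Its reads per kb gave no direction, and the call was lost without WT replicate 1. With any 1 library left out, 4 of the 9 called neighbours still passed, namely both Rnf43 regions, Slc43a1 and Slc43a3. None of the 9 passed when reads per kb of island were tested with limma.

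Among 15 factors that act in eosinophil development, all had a tested H3K27ac region, and 7 were higher and 4 lower in KO. The gene lists here and below were chosen with earlier results of these data known, so their counts are a description. Of all regions, 12.0% were higher and 14.0% lower, and each list gene took its strongest region. The median log2 fold change of the factors was 0.21, against 0 over all regions. Id2, an inhibitor of basic helix-loop-helix factors, had the steepest rise, from 9.30 ± 0.488 to 41.6 ± 15.4 CPM (2.16, SE 0.288 in edgeR, adjusted p = 0.00242). Trib1, a pseudokinase that controls C/EBP levels, rose by 1.34 (SE 0.148). Gfi1, a repressor needed for granulocyte development, rose from 98.9 ± 8.92 to 241 ± 5.58 CPM (1.28, edgeR adjusted p = 0.000363). Cebpe, needed for the granules of neutrophils and eosinophils, rose from 91.8 ± 0.769 to 192 ± 0.737 CPM (1.06, SE 0.0788). Smaller rises were at Id1 (0.50), Bcl6 (0.45) and Spi1, which encodes PU.1 (0.40).

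The GATA factors and Ikzf1, a zinc finger regulator of lymphoid and myeloid cells, were lower. Gata1 fell from 91.8 ± 5.16 to 42.8 ± 0.163 CPM (-1.10, SE 0.106 in edgeR, adjusted p = 0.000777). Its cofactor Zfpm1 fell from 729 ± 105 to 306 ± 54.0 CPM (-1.26, SE 0.142), and Gata2 (-0.68, SE 0.173 in edgeR, adjusted p = 0.0287) and Ikzf1 (-0.37, SE 0.0903) fell less steeply. Cebpa (0.10, SE 0.107) and Cebpb (0.21, SE 0.0749) did not pass. Gata1, Zfpm1, Cebpe, Id2, Trib1 and Gfi1, 6 of the 11 called, passed with any 1 library left out. Gata2 was lost without either WT library, Spi1 without WT replicate 1, Ikzf1 and Bcl6 without WT replicate 2 or KO replicate 2, and Id1 without KO replicate 1, and without WT replicate 2 the lower calls went from 4 to 2. Id2 was lost without the sparsest islands and with lists of equal length, and Ikzf1 without the sparsest islands. Gata2 and Ikzf1 were lost when islands in fewer libraries were admitted. None of the 11 passed on reads per kb, a measure by which 50 regions were higher and 96 lower in the whole table.

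Of 17 genes of the receptor family and its signalling, 15 had a tested region, with 5 higher, 4 lower and a median log2 fold change of -0.01. The shares over all regions were 12.0% higher and 14.0% lower. The sister receptors rose: Il3ra, the interleukin 3 receptor, from 64.2 ± 9.61 to 113 ± 3.54 CPM (0.81, SE 0.123 in edgeR, adjusted p = 0.00396) and Csf2ra, the GM-CSF receptor, by 0.44 (SE 0.0931). So did the kinases Syk (0.61, SE 0.0662) and Lyn (0.41, SE 0.0953) and the feedback inhibitor Cish (0.44, SE 0.0726). Of the other genes in the list, 4 were lower: Stat5a, at 142 ± 0.394 CPM in WT and 60.3 ± 8.45 in KO (-1.24, SE 0.115 in edgeR, adjusted p = 0.000703), Stat5b (-0.48), Jak2 (-0.41) and Pim1, a kinase induced by Stat5 (-0.36). Csf2rb, the shared beta chain, did not pass (13.3 ± 0.852 against 19.2 ± 0.224 CPM, 0.54, edgeR adjusted p = 0.107), nor did Jak1 (-0.13).

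Il3ra, Stat5a, Stat5b, Syk and Cish, 5 of the 9 called, passed with any 1 library left out. Lyn was lost without WT replicate 1 or either KO library, Csf2ra and Pim1 without WT replicate 2 or KO replicate 1, and Jak2 without WT replicate 2 or either KO library. The higher calls went from 5 to 3 without KO replicate 1, and the lower calls from 4 to 2 without WT replicate 2. On reads per kb none of the 9 passed, Jak2 turned to 0.35, Stat5b came to -0.04 and Il3ra, higher in the main test, came to 0.05.

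**Figure D4:**
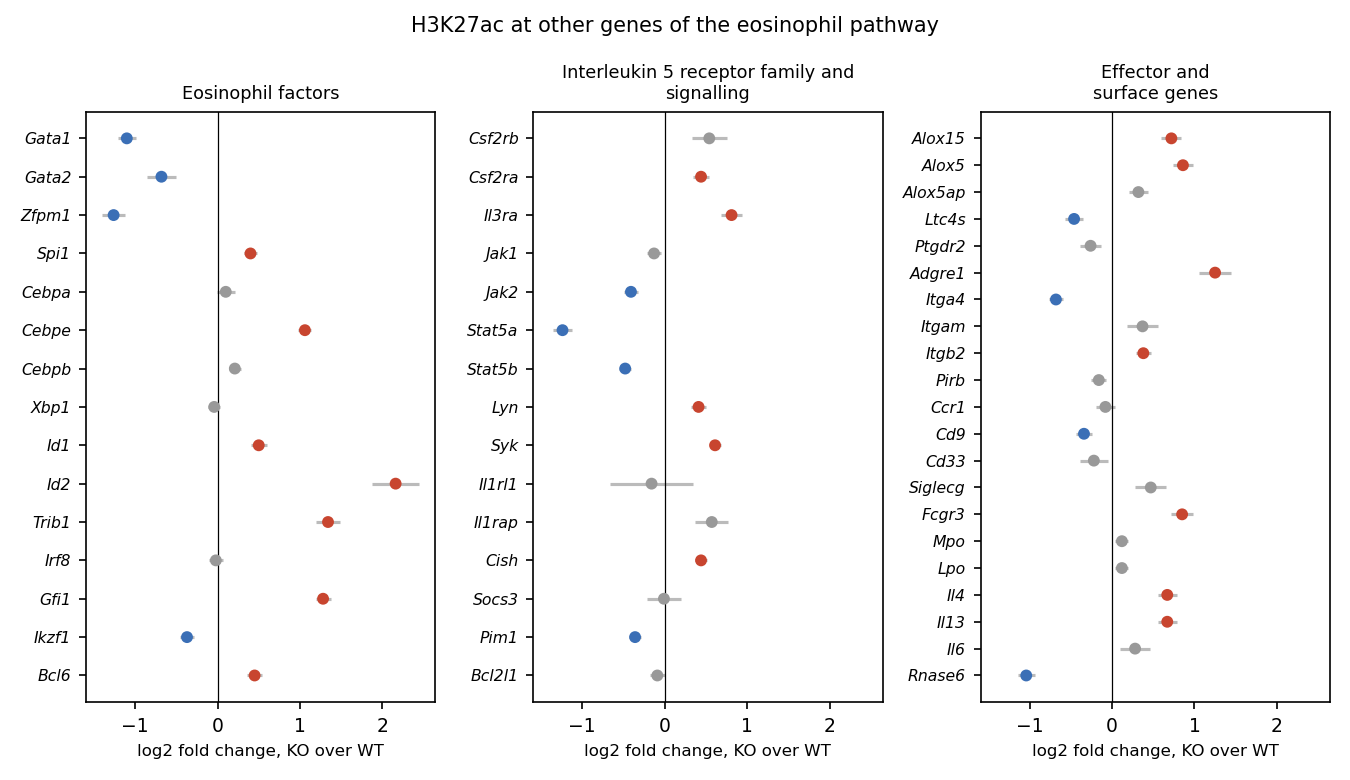
Log2 fold change of H3K27ac, KO over WT (points, with bars of 1 SE), for the tested genes of 3 lists of the eosinophil pathway. Red genes passed as higher and blue as lower by edgeR, and grey genes did not pass. Id2 lies farthest to the right at 2.16 and Zfpm1 farthest to the left at -1.26.

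Of 27 further genes of eosinophil function, 21 had a tested region, on 19 regions, with 7 genes higher, 4 lower and a median log2 fold change of 0.28. The shares over all regions were 12.0% higher and 14.0% lower. Adgre1, the surface receptor F4/80, rose from 12.9 ± 0.819 to 30.9 ± 3.19 CPM (1.25, SE 0.198 in edgeR, adjusted p = 0.00474). The lipid mediator enzymes Alox5 (0.86, SE 0.124) and Alox15 (0.72, SE 0.12) rose, as did the IgG receptor Fcgr3 (0.85, SE 0.135), the integrin chain Itgb2 (0.38, SE 0.0905) and the region shared by the cytokine genes Il4 and Il13 (0.67, SE 0.114). Rnase6 fell from 116 ± 6.21 to 56.4 ± 3.74 CPM (-1.04, SE 0.103 in edgeR, adjusted p = 0.000855), and Itga4 (-0.68), the leukotriene C4 synthase gene Ltc4s (-0.46) and Cd9 (-0.34) were lower. Alox5ap (0.32) and Ptgdr2 (-0.26) did not pass. The ribonuclease genes Ear1, Ear2, Ear6 and Ear10, which encode granule proteins, had no region with an island in all 4 libraries.

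Alox15, Alox5, Adgre1, Itga4, Fcgr3, Rnase6 and the Il4 and Il13 region, 7 of the 10 called regions, passed with any 1 library left out. Cd9 was lost without any of the 4 libraries, Ltc4s without any but KO replicate 2, and Itgb2 without WT replicate 1 or KO replicate 1. The lower calls of the list went from 4 to 2 without either WT library or KO replicate 1. None passed on reads per kb, and without the sparsest islands Alox15, Ltc4s and Cd9 were lost. Scaling to all reads in islands gave 11 higher and 2 lower in this list. Over all regions the same scaling gave 3268 higher and 2069 lower in place of 2258 and 2631, and raised the median log2 fold change of all regions by 0.115.

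For H3K27me3, 4, 3 and 2 genes of the 3 lists had a tested region, and none passed edgeR or DESeq2, with 1, 0 and 1 at an unadjusted p under 0.05. In the whole H3K27me3 table edgeR called 0.00% of 6771 regions higher and 0.0148% lower. Gata2 held 281 ± 66.2 CPM of H3K27me3 in WT and 463 ± 6.45 in KO (0.72, SE 0.188 in edgeR, adjusted p = 0.384).

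Lists of markers of other blood cells were read in the same libraries, because a lineage-depleted fraction can hold several lineages. Their calls stand beside shares of 12.0% higher and 14.0% lower over all H3K27ac regions. Of 10 B cell markers, 8 were higher and 1, Cd79a, lower in KO, and their islands summed to 519 to 572 rpm in WT and 1000 to 1365.1 rpm in KO. All 5 tested erythroid markers of 8 were lower, with sums of 955 to 1134.7 rpm in WT and 307 to 343 in KO. The basophil and mast cell list, the lineage nearest to eosinophils, had none higher and 2 lower (Ms4a2 and Kit) of 8 tested, and sums of 608 to 640 rpm in WT and 539 to 691 in KO. Neutrophil markers had 0 called of 6 tested by edgeR and DESeq2, with 0 at an unadjusted p under 0.05, and sums of 593 to 650 rpm in WT and 737 to 879 in KO. Camp, Ngp, S100a8 and S100a9, the other 4 of that list, had no region with an island in all 4 libraries and were not tested, and islands lay at 6 of its 10 genes in each WT library and at 10 and 9 in KO.

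The T and NK list had 1 higher (Cd3d) of 5 tested and sums of 315 to 328 rpm in WT and 343 to 532 in KO. The Cd3d call was lost without either WT library or KO replicate 1, with islands in fewer libraries admitted, and on reads per kb. The macrophage and monocyte list had 0 called of 6 tested by edgeR, with 1 by DESeq2 and 1 at an unadjusted p under 0.05, and sums of 376 to 465 and 373 to 397 rpm. Tpsb2, Cd3e and Marco had no H3K27ac island in any library. The islands of the eosinophil genes themselves summed to 246 to 305 rpm in WT and 865 to 907 in KO. Of the 9 B cell calls, 6 passed with any 1 library left out, 2 on reads per kb and 3 without the sparsest islands, and of the 5 erythroid calls 5, 3 and 4. The summed levels of the B cell, neutrophil and T and NK lists were thus higher in both KO libraries, and those of the erythroid list lower in both. Of single gene windows with an island, 37.0% were higher in both KO libraries and 31.1% lower. For the T and NK list the gap was narrow, from 328 rpm in WT to 343 in KO. The eosinophil genes were chosen on this contrast, and the part of the other lists in the values above was not tested.

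For each gene the 3 protein-coding genes with the nearest profile of window totals over the 10 histone mark and UTX libraries were found, by Euclidean distance of log2(rpm + 1), leaving out genes within 200 kb. For Il5ra these were Eepd1, Rgs2 and Paip2b, at distances of 1.25 to 1.26, and Eepd1 went from 68.6 and 77.5 to 132 and 128 rpm of H3K27ac. For Epx they were Dmrtb1, Slc35e4 and Chdh, at 2.60 to 3.12, all with H3K27me3 in WT and none in KO. For Prg2 they were Dnajc28, Ensa and Clec12a, for Prg3 Litaf, Sele and St8sia4, for Siglecf Rnase10, Slu7 and Pygb, and for Ccr3 Mrps15, 9130401M01Rik and Klhl6. Siglecf had the closest match, at 0.39, and Epx the most distant nearest gene. The choice hung on the measure: a Spearman correlation or a window of 5 kb each shared 1 of these 18 genes.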

How the data were processed

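The deposited files list islands called per library with SICER on mm10, per the submitters' processing notes, each with its count of reads. The SICER version, aligner, gap, threshold and control are not given in the sources used here. Islands were multiples of 200 bp. Genes came from RefSeq (GRCm38.p6).

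The 6 genes and all gene lists were chosen with earlier results of these data known. Members: island reads within 20 kb over all island reads of the library (rpm), with no test. Islands of a mark were merged across its libraries, and regions with an island in all 4 were tested with edgeR 4.0.16 (R 4.3.3, TMM, glmQLFTest, two-sided, Benjamini-Hochberg threshold 0.05). SE came from the F statistic. A list gene took its strongest region within 5 kb. Genes named: the members, genes with either boundary by their islands, called list genes with up to 2 others a list, and 3 nearest profiles. The fit was tested on simulated data. Alternatives used DESeq2 1.42.0, limma 3.58.1, other scalings, filters, windows and left-out libraries. Intervals were not computed, since reads outside islands were not used here.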

Additional observations from a re-analysis of the deposited data

How the results depend on the processing

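The H3K27ac table (2258 higher, 2631 lower) gave 1227 to 1392 higher and 1369 to 1907 lower with 1 library left out, 50 and 96 on reads per kb, and 5225 and 3988 lower with islands in at least 2 or in any library. The lower calls of the factor and effector lists were 2 with either of these, and all 3 lists had 0 calls on reads per kb. The effector list had 11 higher and 2 lower with total scaling, and 2 lower without the sparsest islands (fewest reads per kb). With a library left out, lower calls came to 2 at the least in each list, and higher calls of the receptor list to 3. Without those islands, 2 member regions had a log2 fold change of at least 1, because the other 4, namely both Il5ra regions and those of Epx and the Ccr3 start, were no longer tested.

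For H3K27me3 (0 higher, 1 lower), total scaling gave 9 higher, no filter 82 and 195, DESeq2 16 and 17, and reads per kb 4 higher and 0 lower. Lower calls were 0 with islands in at least 2 libraries, a mean of 50 reads or equal list lengths, and 2 without the sparsest islands. Leaving out a library gave 0 to 1 higher and 0 to 6 lower. With no filter 1 factor gene was lower.

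The titles share replicate numbers, but deviations of same-numbered libraries correlated at 0.046 (H3K27ac) and -0.052 (H3K27me3), so the numbers were not taken as pairs. With the replicate block, H3K27ac gave 2615 higher and 2883 lower and H3K27me3 0 and 0.

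Members with both KO below both WT went to 0 with 50 kb windows for H3K27ac, where Siglecf turned to 1.04, and to 0 with the gene alone, 5 kb or 50 kb for H3K27me3. The Ccr3 window turned to 0.899 on reads per kb. Genes with UTX in both libraries numbered 0, 1 and 5 with the gene alone, 5 kb and 50 kb, and 5 without UTX replicate 1. Genes with UTX in at least 1 numbered 2 and 3 with the gene alone and 5 kb, 3 without the sparsest islands and 2 without UTX replicate 2. On reads per kb, log2 changes turned to -0.18 at the Ccr3 start, 0.20 at the last Ccr3 region, -0.09 at Trnt1, 0.02 at Jak1, 0.35 at Jak2, 0.16 at Ptgdr2, -0.53 at Ebf1, 0.12 at Smtnl1 with Timm10 and 0 at Siglecg. With a library left out, Trnt1 ranged from -0.01 to 0.23 and Cebpa from -0.04 to 0.22, and Jak1 turned to 0.01 with equal lists. The cause of these shifts was not tested. UTX and H3K27me3 islands rested on fewer reads than those of H3K27ac.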
